A study of Mus musculus with 8 samples.

Results

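The 9 genes described here encode components and regulators of the complement system: the C1q chains C1qa, C1qb and C1qc, the components C2, C4b and C3, complement factor B (Cfb), properdin (Cfp) and the C1 inhibitor Serping1. They are a named list, chosen by function and with earlier results of these data known. Each was found by its Ensembl identifier among the 52636 genes of the count table through the symbols of GENCODE vM21. All 9 passed the filter on low counts, as did 13847 genes in all, but Serping1 passed it only through its LPS libraries. After LPS the 3 C1q chains were lower, C2, C3, Cfb, Cfp and Serping1 were higher, and C4b was not called in either direction. Of all genes tested, 30.3% were called higher and 33.8% lower, 64.1% in all, and 60.2% had groups that did not overlap in CPM, which was so for 8 of the 9 complement genes. The 8 calls were thus made against a background in which most genes were called, and the direction by role and the size of each change are what the values below describe. The median log2 change was 1.23 over the 9 genes and -0.11 over all genes tested.

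Complement is a cascade of plasma and tissue proteins that marks surfaces for uptake and can end in lysis. In the classical pathway C1q binds its target and its partner proteases cleave C4 and C2, which together form a convertase that cleaves C3. In the alternative pathway C3b binds factor B, and properdin stabilises the resulting convertase. In the brain microglia are a main source of C1q, and C1q and C3 are known for their part in the removal of synapses by these cells.

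RNA was sequenced from cultured WT microglia that had received 5 µg/ml LPS, a bacterial lipopolysaccharide, or vehicle for 24 h, with 4 libraries per group. The labels give the strain as C57BL/6, and the study's methods name C57BL/6N for the wild-type pups. Both groups were grown from brains of neonatal mice, shaken off a mixed glial culture and kept with serum and the growth factor CSF-1, so they model cultured and not adult resident microglia. The sources do not tell which vehicle and LPS libraries, if any, came from a common culture, and if replicates are not independent cultures, p-values measure only the spread between these libraries. The library totals ranged from 20071921 to 30604447 counts. Levels are given as CPM, counts relative to the TMM-scaled library total. The TMM factors differed by group, at 1.21 to 1.32 in vehicle and 0.701 to 0.833 in LPS libraries. Shares of counts given below are not scaled by these factors, so they change by other amounts than CPM. In a library, 3 counts corresponded to 0.0952 to 0.107 CPM in vehicle and 0.140 to 0.180 CPM in LPS libraries. The summed level of 10 microglial markers was 8226 to 8631 CPM in vehicle and 2580 to 3041 CPM in LPS libraries, and 7 of them were called lower and 1 higher. Markers of the oligodendrocyte lineage summed to 92.9 to 146 CPM in vehicle and 17.6 to 23.5 CPM in LPS libraries. The 6 endothelial markers summed to 10.8 to 22.9 and 51.3 to 110 CPM. Of these, 3 were tested and 2 called higher, while Cldn5, Tek and Esam had 3 counts or fewer in each library. Pecam1 had 1.03 to 5.43 CPM in vehicle and 31.7 to 68.7 CPM in LPS libraries. Cdh5 had 0.595 to 1.28 and 6.34 to 8.77 CPM, and Kdr overlapped between groups. In bulk samples fewer cells of a type and less RNA per cell cannot be told apart.

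Promoter sequences are shown because genes that moved together can be read side by side, C1qb and C1qc among the genes that fell and C3 and Cfp among those that rose. The set of RefSeq promoters on GRCm38.p6 used here held these 4 of the 9 genes, from 250 bases before to 50 bases after the start, all on the minus strand. The absence of the others from this set says nothing about whether RefSeq annotates them. C1qb lies at chr4:136886151-136886450, C1qc at chr4:136892865-136893164, C3 at chr17:57228087-57228386 and Cfp at chrX:20931506-20931805. Each is printed 5′ to 3′ in the direction of transcription, and capitals mark matches to a motif.
C1qb: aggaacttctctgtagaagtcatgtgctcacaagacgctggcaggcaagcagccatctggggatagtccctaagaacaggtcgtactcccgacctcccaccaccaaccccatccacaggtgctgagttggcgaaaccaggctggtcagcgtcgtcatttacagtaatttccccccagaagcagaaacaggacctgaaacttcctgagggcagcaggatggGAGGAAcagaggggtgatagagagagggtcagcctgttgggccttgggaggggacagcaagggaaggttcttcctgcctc
C1qc: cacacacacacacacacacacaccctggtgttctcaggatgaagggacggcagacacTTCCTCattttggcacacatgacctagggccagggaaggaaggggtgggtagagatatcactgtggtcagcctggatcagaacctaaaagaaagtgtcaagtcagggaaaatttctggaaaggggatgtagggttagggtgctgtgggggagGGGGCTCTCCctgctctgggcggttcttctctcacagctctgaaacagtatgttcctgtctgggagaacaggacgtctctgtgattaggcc
C3: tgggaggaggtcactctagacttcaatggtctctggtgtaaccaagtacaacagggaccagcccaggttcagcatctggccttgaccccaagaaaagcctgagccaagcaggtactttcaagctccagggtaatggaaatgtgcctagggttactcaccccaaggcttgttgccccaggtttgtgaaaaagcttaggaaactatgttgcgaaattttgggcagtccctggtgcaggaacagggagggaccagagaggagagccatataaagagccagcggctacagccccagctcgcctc
Cfp: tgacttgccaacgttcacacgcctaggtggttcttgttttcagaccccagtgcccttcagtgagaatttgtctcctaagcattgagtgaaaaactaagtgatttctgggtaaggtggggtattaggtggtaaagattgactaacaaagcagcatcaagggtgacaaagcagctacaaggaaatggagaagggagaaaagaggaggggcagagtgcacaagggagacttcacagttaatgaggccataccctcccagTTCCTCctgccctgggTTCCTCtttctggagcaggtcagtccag

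The motifs were searched on both strands: kappa B (the NF-kappa B site), the ISRE core GAAANNGAAA (an interferon response element), the GAS core TTCNNNGAA (a STAT site) and the core GAGGAA of PU.1, a transcription factor of myeloid cells. C1qb held a PU.1 core at positions -30 to -25 from the start. C1qc held a kappa B match at -41 to -32 and a PU.1 core on the other strand at -193 to -188. Cfp held PU.1 cores on the other strand at 7 to 12 and 23 to 28, and C3 held no match in this window. Of 32851 promoters of the same length, 4.51% held kappa B, 3.44% the ISRE core, 8.3% the GAS core and 28.3% the PU.1 core. A match is a description of letters, and binding was not measured.

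The 3 chains of C1q, the recognition molecule of the classical pathway, were all lower after LPS, and their RNA together took 0.733% ± 0.139 of the counts of vehicle libraries and 0.120% ± 0.0313 of those of LPS libraries (SD, n = 4). The genes are neighbours on the minus strand of chromosome 4 in GRCm38. C1qa (ENSMUSG00000036887, 136895917 to 136898803) had 2023, 1840, 2731 and 1623 CPM in vehicle replicates 1 to 4 and 427, 474, 322 and 515 CPM in LPS replicates 1 to 4. C1qb (ENSMUSG00000036905, 136880129 to 136886187) had 1577, 1682, 2450 and 1473 CPM in vehicle and 566, 759, 612 and 889 CPM in LPS libraries. C1qc (ENSMUSG00000036896, 136889804 to 136893065) had 1688, 1951, 2586 and 1709 CPM in vehicle and 282, 444, 256 and 473 CPM in LPS libraries. The groups did not overlap for any chain, vehicle replicate 3 was the highest library for all 3, and LPS replicates 2 and 4 were the highest within the LPS group. The log2 change was -2.45 for C1qc (SE 0.25, edgeR quasi-likelihood test, adjusted p = 2.41e-05), -2.24 for C1qa (SE 0.21, adjusted p = 1.52e-05) and -1.34 for C1qb (SE 0.21, adjusted p = 0.000378). As mean CPM, vehicle libraries held 5.46 times as much C1qc, 4.73 times as much C1qa and 2.54 times as much C1qb as LPS libraries. The microglial marker sum was also lower in LPS libraries, as given above, and its part in these falls was not tested.

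**Figure D1:**
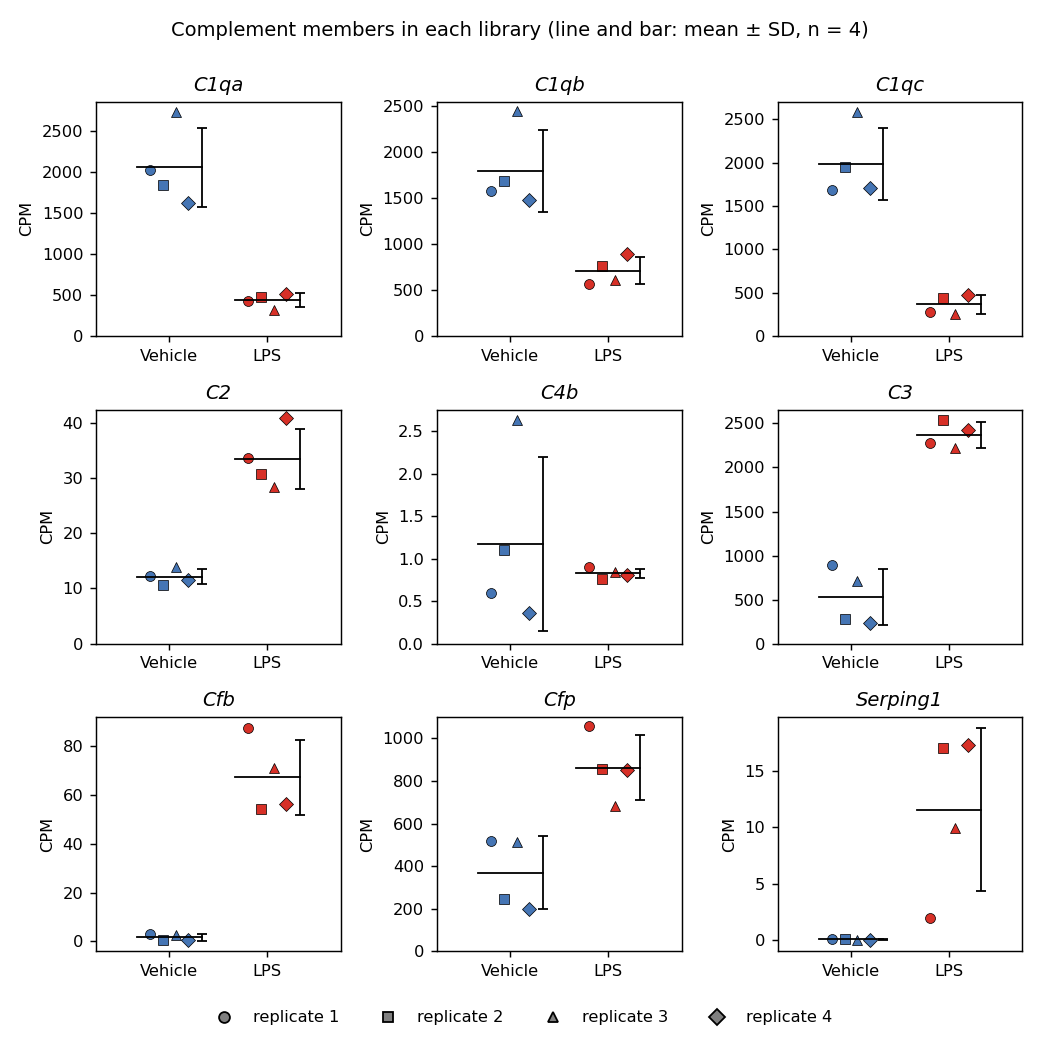
CPM of each of the 9 genes in every library on a linear axis per gene, with libraries as points shaped by replicate number (vehicle blue, LPS red), and a line and bar for mean ± SD (n = 4). The 3 C1q chains sit lower in all 4 LPS libraries, C2, C3, Cfb, Cfp and Serping1 sit higher in all 4, and C4b overlaps between groups.

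The chains did not fall by the same amount. The log2 ratio of C1qa to C1qb counts within a library, which does not depend on scaling between libraries, was 0.20 ± 0.11 in vehicle and -0.70 ± 0.22 in LPS libraries (SD, n = 4). The ratio of C1qc to C1qb was 0.15 ± 0.07 in vehicle and -0.99 ± 0.20 in LPS libraries. The fall of C1qb was thus smaller than that of its partner chains, by 1.86-fold against C1qa and by 2.20-fold against C1qc. Each difference had a two-sided exact permutation p = 0.0286, the smallest that 4 against 4 libraries allow, and an adjusted p = 0.0286 over the 4 ratios compared. With the replicate numbers taken as pairs, the exact permutation p was 0.125 for each of the 4 ratios, which is the smallest that 4 pairs allow. None of the chains shared a window of 50 bases with another gene.

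**Figure D2:**
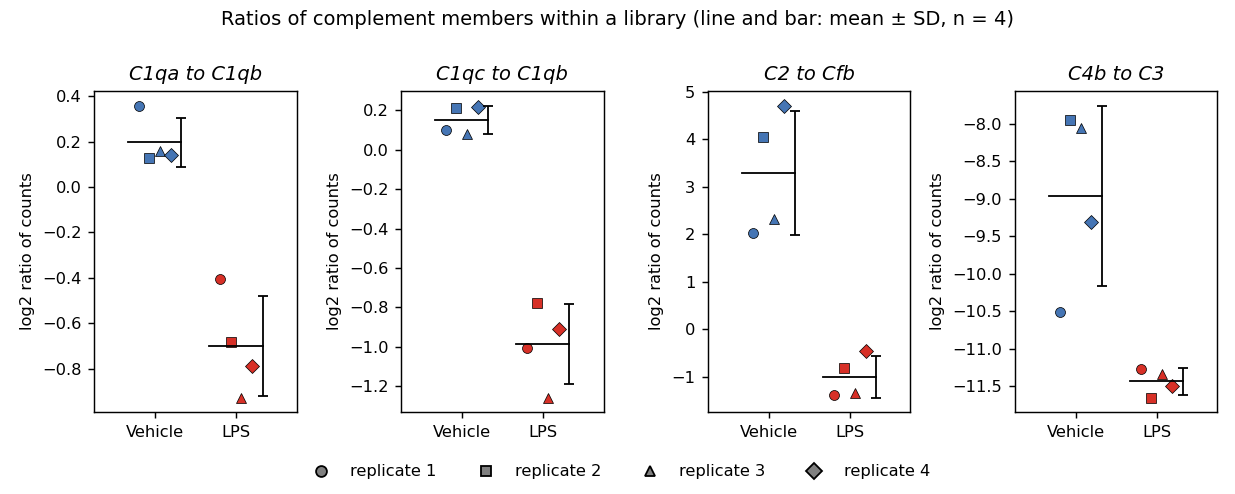
Log2 ratio of the counts of 2 complement genes within each library, with libraries as points shaped by replicate number (vehicle blue, LPS red), and a line and bar for mean ± SD (n = 4). In all 4 ratios every LPS library lies below every vehicle library.

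C2 and C4b form the C3 convertase of the classical and lectin pathways, and only C2 passed the test. C2 (ENSMUSG00000024371, chromosome 17, 34862604 to 34898265, minus strand) had 12.2, 10.6, 13.9 and 11.6 CPM in vehicle and 33.6, 30.7, 28.3 and 40.8 CPM in LPS libraries. The groups did not overlap, and C2 rose by 1.46 on the log2 scale (SE 0.14, edgeR adjusted p = 1.85e-05). C4b (ENSMUSG00000073418, chromosome 17, 34728380 to 34743882, minus strand) was low, with 17, 32, 83 and 10 counts in vehicle and 15, 14, 18 and 15 counts in LPS libraries. These counts corresponded to 0.595, 1.11, 2.63 and 0.355 CPM in vehicle and 0.898, 0.762, 0.840 and 0.811 CPM in LPS libraries. The vehicle libraries spread on both sides of the LPS libraries, and vehicle replicate 3 was the highest of all. The log2 difference of C4b, LPS minus vehicle, was -0.51 (SE 0.56, edgeR adjusted p = 0.445), and it was 0.33 without vehicle replicate 3 (edgeR adjusted p = 0.506). No direction was detectable at these low counts and with this spread between vehicle libraries. Of the 50-base windows of C4b, 34.6% also occur in C4a, a near-identical neighbour, so its counts are uncertain.

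C3, on which all complement pathways converge, was higher in all 4 LPS libraries than in any vehicle library. C3 (ENSMUSG00000024164, chromosome 17, 57203970 to 57228136, minus strand) had 891, 279, 709 and 238 CPM in vehicle and 2281, 2541, 2222 and 2423 CPM in LPS libraries. The LPS libraries lay close together, whereas vehicle replicates 1 and 3 held far more C3 than replicates 2 and 4. The mean was 529 ± 322 CPM in vehicle and 2367 ± 144 CPM in LPS libraries (SD, n = 4), a rise of 2.16 on the log2 scale (SE 0.40, edgeR adjusted p = 0.00109). Set beside the vehicle library of the same number, the LPS library held 2.56, 9.11, 3.13 and 10.2 times as much C3 for replicates 1 to 4. Because the LPS libraries lay close together, the order of these ratios follows from the vehicle levels. Whether the numbers mark pairs is uncertain. The log2 ratio of C4b to C3 within a library was -8.96 ± 1.201 in vehicle and -11.44 ± 0.17 in LPS libraries (two-sided exact permutation p = 0.0286, adjusted p = 0.0286). C3 took 0.0661% ± 0.0391 of the counts of vehicle and 0.188% ± 0.0225 of those of LPS libraries.

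Cfb and Cfp, the alternative pathway members of the list, were both higher after LPS, Cfb from 12 to 87 counts in a vehicle library to 994 to 1525 in an LPS library. Factor B is the protease that forms the alternative C3 convertase. Cfb (ENSMUSG00000090231, chromosome 17, 34856374 to 34862518, minus strand) had 2.98, 0.623, 2.76 and 0.426 CPM in vehicle and 87.6, 54.1, 71.1 and 56.2 CPM in LPS libraries. Vehicle replicates 1 and 3 and LPS replicates 1 and 3 were the higher libraries within their groups, and the groups did not overlap. The mean rose 39.6-fold, from 1.70 ± 1.36 to 67.2 ± 15.5 CPM (SD, n = 4), and the log2 change was 5.30 (SE 0.54, edgeR adjusted p = 2.31e-05). By replicate number the ratio was 29.4, 86.9, 25.8 and 132. The genes Cfb and C2 lie next to each other, and the ratio of C2 to Cfb within a library went from 3.28 ± 1.30 on the log2 scale in vehicle to -0.997 ± 0.44 in LPS libraries (two-sided exact permutation p = 0.0286, adjusted p = 0.0286). C2 was thus the higher of the pair in every vehicle library and the lower in every LPS library by counts.

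The counts of C2 and Cfb are uncertain because another gene overlaps both. Gm20547, a readthrough gene that spans both, shares 2246 of the 2825 exonic bases of Cfb and 1656 of the 3872 of C2, and it held 0 counts in all libraries. Among protein-coding genes with every exonic base shared with another gene, 87 of 104 on the same strand held 0 counts (83.7%), as did 30 of 34 on the opposite strand only (88.2%), against 4958 of 15649 genes with no shared base (31.7%). C2 also shares 161 bases with Zbtb12 on the opposite strand. If reads in exons shared on either strand were left out of the table, 579 bases (20.5%) of Cfb and 2055 bases (53.1%) of C2 remain to be counted. Levels of these genes beside others, and their ratio to each other, are uncertain for that reason, whereas the counting was the same in both groups.

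Properdin, the stabiliser of the alternative convertase, had at least 5545 counts in every library. Cfp (ENSMUSG00000001128, chromosome X, 20925454 to 20931555, minus strand) had 519, 245, 513 and 197 CPM in vehicle and 1056, 858, 682 and 851 CPM in LPS libraries. As for C3 and Cfb, vehicle replicates 1 and 3 were higher than replicates 2 and 4, and the groups did not overlap in CPM. Before scaling, vehicle replicates 1 and 3 held 14823 and 16174 counts of Cfp in totals of 22796052 and 26129375. LPS replicate 3 held 14617 in a total of 30604447, a smaller share, so the groups overlapped as shares of raw counts. The mean was 369 ± 171 CPM in vehicle and 862 ± 153 CPM in LPS libraries (SD, n = 4), and Cfp rose by 1.23 on the log2 scale (SE 0.32, edgeR adjusted p = 0.00725). Neutrophils also make properdin. Of 6 neutrophil markers, S100a9, Ly6g, Mpo and Elane had at most 3 counts in each library. S100a9 was at 0 in every library, while S100a8 held 10570 to 19604 counts in LPS libraries. Whether that 0 reflects absent RNA or the counting cannot be told. Camp had 3, 0, 1 and 0 counts in vehicle and 50, 6, 11 and 6 in LPS libraries. The summed level was between 0.0692 and 0.875 CPM in vehicle and between 572 and 1176 CPM in LPS libraries. Nearly all of the LPS sum was S100a8, and the part of this sum in the rise of Cfp was not tested.

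Serping1 encodes the C1 inhibitor, a serpin that inactivates the proteases bound to C1q and those of the lectin pathway. Serping1 (ENSMUSG00000023224, chromosome 2, 84765387 to 84775444, minus strand) had 3, 3, 0 and 0 counts in vehicle and 33, 313, 213 and 320 counts in LPS libraries. LPS replicate 1 was far below the other LPS libraries and still above every vehicle library. In CPM the LPS libraries held 1.97, 17.0, 9.93 and 17.3. Serping1 was called higher (edgeR adjusted p = 6.2e-05). It passed the filter on low counts only through the LPS libraries, where it was high, so the call is not independent of that filter. With 6 counts in vehicle and 879 in LPS libraries, the ratio after scaling was 229, with an exact 95% binomial interval of 105 to 625 that covers counting error only. Serping1 is also made by fibroblasts and astrocytes. The summed level of 10 fibroblast and mural markers was 4.296 to 8.996 CPM in vehicle and 8.87 to 28.8 CPM in LPS libraries. Of these markers 4 were tested, with 1 called higher, Dcn, and 0 lower. Dcn had the highest mean of them in LPS libraries (8.90 CPM). Col1a1, Col1a2 and Col3a1 had 1 to 47, 0 to 34 and 0 to 25 counts in a vehicle library. In LPS libraries each had at most 3 counts. Lum went the other way, with 0 to 5 counts in a vehicle and 2 to 30 in an LPS library. The summed level of 10 astrocyte markers was 20.6 to 51.4 and 41.9 to 125 CPM, with 1 called higher and 3 lower. Gja1, with 0.639 to 1.07 CPM in vehicle and 28.9 to 98.1 CPM in LPS libraries, was the astrocyte marker that rose, while Aqp4, Gfap and Aldh1l1 fell. The part of these cell types in the result was not tested.

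**Figure D3:**
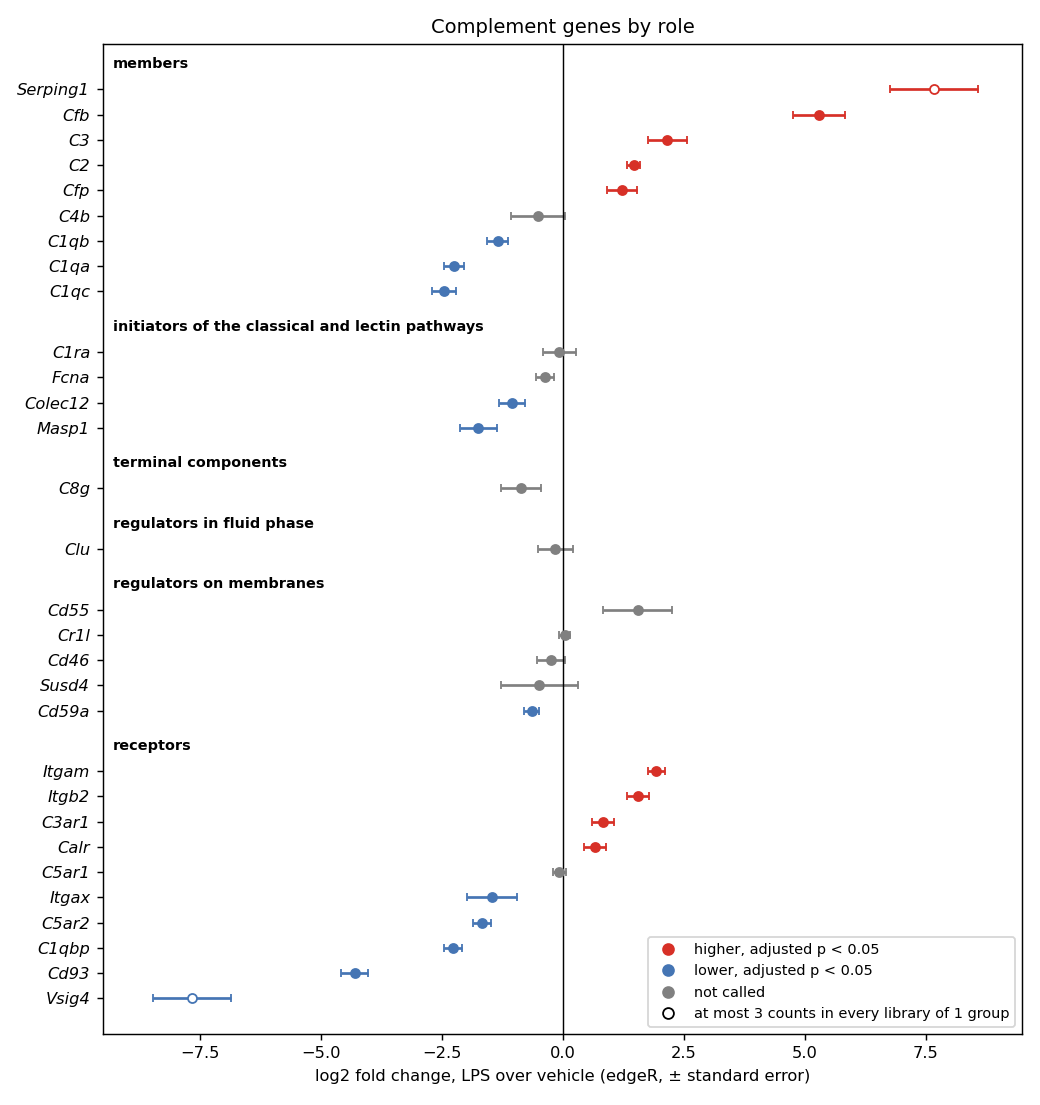
Log2 fold change of LPS against vehicle with its SE for the 9 genes and tested genes of the pathway list by role, from the edgeR fit, with calls in red (higher), blue (lower) and grey (not called). Serping1 and Cfb lie furthest to the right and Vsig4 and Cd93 furthest to the left, where open points (Serping1, Vsig4) have at most 3 counts in every library of a group, so that their position depends on the fit and is no bound.

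Compared per length, in CPM per kb of exon, the C1q chains led in vehicle libraries, and Cfp and C3 stood among them in LPS libraries. In vehicle libraries C1qa (1975 ± 462) and C1qb (1650 ± 409) led and overlapped, followed by C1qc (1027 ± 217), Cfp (212 ± 98.7) and C3 (103 ± 62.6), of which the last pair also overlapped (SD, n = 4). In LPS libraries C1qb (650 ± 135), Cfp (496 ± 88.2), C3 (460 ± 27.9) and C1qa (418 ± 80.0) had overlapping ranges from each to the next, and C1qc (188 ± 57.2) lay below all of them. In LPS libraries Cfb (23.8 ± 5.49), C2 (8.61 ± 1.41), Serping1 (4.97 ± 3.12) and C4b (0.145 ± 0.00991) followed. In vehicle libraries C2 was at 3.12 ± 0.356, Cfb at 0.600 ± 0.481, C4b at 0.206 ± 0.180 and Serping1 at 0.0225 ± 0.0259. The ranges of C2 and Serping1 in LPS libraries and of Cfb and C4b in vehicle libraries overlapped. Per kb of bases shared with no other gene, Cfb was at 116 ± 26.8 and C2 at 16.2 ± 2.66 in LPS libraries. The 9 genes together took 0.847% ± 0.171 of the counts of vehicle and 0.385% ± 0.0627 of those of LPS libraries.

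**Figure D4:**
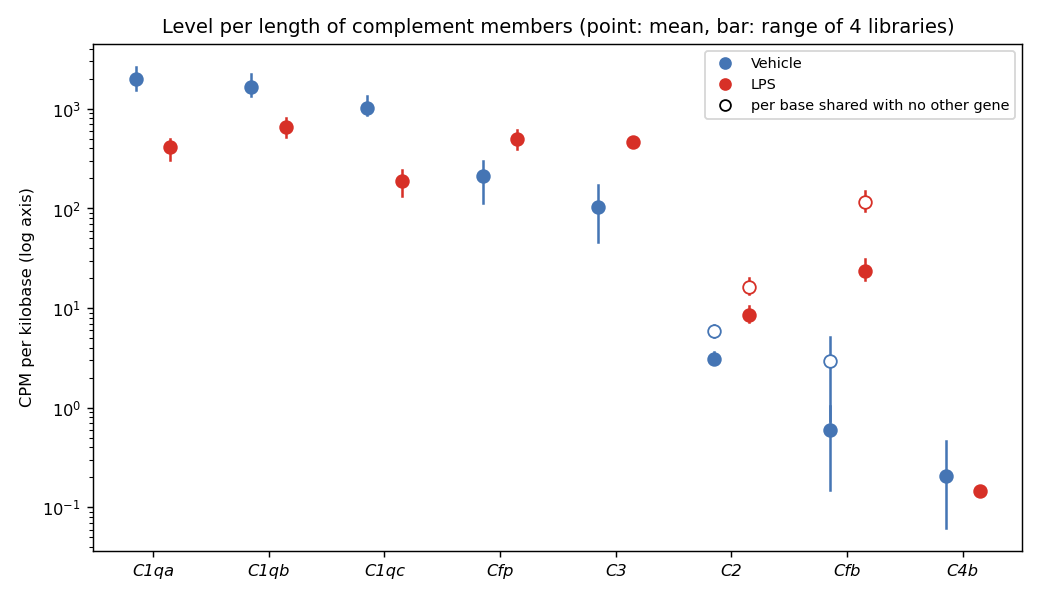
Level of each gene in CPM per kb of exon on a log axis, with points for the mean and bars for the range of 4 libraries (vehicle blue, LPS red), and open points per kb of bases shared with no other gene. Serping1, with vehicle libraries at 0, is not drawn. The C1q chains lead in vehicle libraries, and Cfp and C3 reach the level of C1qa in LPS libraries.

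Of 52 other genes of the pathway, listed by role, 22 passed the filter, of which 4 were called higher, 9 lower and 9 neither, beside 30.3% higher and 33.8% lower of all genes. Over the alternatives 3 to 5 were called higher and 8 to 10 lower. Their median log2 change was -0.43. Among the initiators of the classical and lectin pathways 4 of 14 were tested, and 2 were lower. Colec12, a membrane collectin, went from 578 ± 105 to 280 ± 119 CPM (SD, n = 4), a fall of 1.04 on the log2 scale (SE 0.26, edgeR adjusted p = 0.0064). Masp1, a protease of the lectin pathway, fell by 1.74 on the log2 scale, from 3.25 to 0.971 CPM (SE 0.38, adjusted p = 0.00272). Fcna, a ficolin that binds microbial sugars, had a log2 difference of -0.37 (edgeR adjusted p = 0.107), which was -0.41 and called with the replicate block. C1ra, a protease of the C1 complex, had 61 to 221 counts in a library and shares 50.8% of its windows with C1rb. Its log2 difference was -0.07 (adjusted p = 0.867), and 0.42 without vehicle replicate 3. C4a had 3, 8, 4 and 9 counts in vehicle and 1, 2, 2 and 0 in LPS libraries and was not tested. Of the 7 terminal components, which build the lytic pore, only C8g was tested, with a log2 difference of -0.86 (adjusted p = 0.0907). Cfd, the protease that activates factor B, is listed at 0 in every library.

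Among the regulators, Clu, clusterin, a fluid-phase inhibitor of the terminal complex, had a log2 difference of -0.15 (edgeR adjusted p = 0.729). Of 8 regulators on membranes 5 were tested, 0 higher and 1 lower, beside 30.3% higher and 33.8% lower of all genes. The lower gene was Cd59a, an inhibitor of the lytic pore. It fell by 0.64 on the log2 scale (SE 0.16, edgeR adjusted p = 0.00544), from 7.54 to 4.86 CPM. Cd55, which speeds the decay of C3 convertases and was named after its values were seen, had a log2 difference of 1.55 (edgeR adjusted p = 0.0797), which was called with the replicate block (1.80) and without vehicle replicate 1 (2.79).

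Of 11 receptors 10 were tested, 4 higher, 5 lower and 1 not called. Of all genes tested, 64.1% were called, 30.3% higher and 33.8% lower. Itgam, a chain of complement receptor 3 that binds fragments of C3b, rose from 252 to 965 CPM, by 1.94 on the log2 scale (SE 0.18, edgeR adjusted p = 1.33e-05), and 66.3% of its windows also occur in Gm49368. Cd93, once described as a C1q receptor, was 19.7 times as high in vehicle as in LPS libraries (adjusted p = 1.36e-06). C1qbp, a binding protein of C1q, fell by 2.27 (SE 0.19, adjusted p = 5.99e-06), from 36.3 to 7.54 CPM. C5ar1, the receptor for C5a, did not pass the test, at 480 CPM in vehicle and 457 CPM in LPS libraries with a log2 difference of -0.07 (adjusted p = 0.676), whereas C5ar2, another receptor for C5a, fell by 1.67 (SE 0.18, adjusted p = 3.86e-05), from 13.5 to 4.21 CPM. The remaining receptors were named after their values were seen. C3ar1, the receptor for C3a, rose by 0.83 (SE 0.23, edgeR adjusted p = 0.00965), with groups that overlapped, and Itgb2, the partner chain of Itgam, rose by 1.55 (adjusted p = 0.000205). Calr, calreticulin, which binds C1q, rose by 0.66 (adjusted p = 0.0262), and Itgax, a chain of complement receptor 4, fell by 1.46 (adjusted p = 0.0311). The calls of Calr and Itgax were lost when single libraries were left out. Calr was not called without vehicle replicate 1, 2 or 4 or without LPS replicate 1 or 3, at log2 differences of 0.50 to 0.65 (edgeR adjusted p of 0.0527 to 0.0713). Itgax was not called without vehicle replicate 1 or 3 or without LPS replicate 2, 3 or 4, at log2 differences of -1.48 to -0.89 (edgeR adjusted p of 0.0512 to 0.129). Vsig4, a receptor for C3b, had 21 to 41 counts in vehicle libraries and 0 in every LPS library, which made it at least 6.46-fold lower against a floor of 3 counts per library.

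By likeness of pattern over the 8 libraries, a description with no test, 1110038B12Rik, Ccs and Renbp were closest to the mean of the C1q chains (Pearson r of log2 CPM 0.9992, 0.9926 and 0.9925 among 8375 genes compared). Closest to Cfb were Birc3, Bst1 and Fpr1 (r of 0.9993, 0.9989 and 0.9969). All points share the same libraries and the split into vehicle and LPS.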

How the data were processed

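The authors deposited raw counts per Ensembl gene, in which HTSeqGenie assigned uniquely placed reads that GSNAP had aligned to GRCm38, and did not normalize them. The annotation release and the use of strand are not given in the sources used here, and the labels and the study's methods name different library kits and sequencers. Of the 52636 identifiers 52403 had a symbol in GENCODE vM21. Libraries were tested in R 4.3.3 with edgeR 4.0.16 (TMM, filterByExpr with min.count of 10 and min.total.count of 15, two-sided quasi-likelihood F-test, Benjamini-Hochberg over all tested genes, threshold 0.05), and DESeq2 1.42.0 was an alternative. Code was tested on simulated data. Ratios within a library used counts + 0.5 and exact permutation over all 70 ways to divide the 8 libraries. Tables and figures were made with Python 3.11.15, numpy 2.4.6, pandas 2.3.3, scipy 1.17.1 and matplotlib 3.10.9. Intervals and floors (3 counts) cover counting error only.

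The members and lists were chosen with earlier results of these data known. All members were named. Of each role of the pathway list were named the genes with an adjusted p under 0.05 and a mean log2 CPM of at least 1, at most the 4 with the largest change, the uncalled tested genes where at most 3, and C4a. Some genes of the list are in its counts but are not reported singly here. For likeness the 3 genes with the highest r and a mean log2 CPM of at least 3 were named. Sources do not say whether replicate numbers mark shared cultures. Deviations of same-numbered libraries from their group means correlated with r of 0.363, 0.179, 0.177 and 0.110 over 8382 genes, all above the limit of 0.1, so the numbers were taken as pairs in an alternative fit with a replicate block. Vehicle replicate 2 with LPS replicate 4 (0.141) and vehicle replicate 4 with LPS replicate 2 (0.122) were also above it, the latter above the same-numbered pair 4, so the pairing of replicates 2 and 4 is uncertain. Other alternatives were upper quartile normalization, no filter, at least 10 counts in every library, an adjusted p of 0.01, a pseudocount of 5 for ratios and leaving out each library in turn. Promoters were taken from RefSeq on GRCm38.p6.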

Additional observations from a re-analysis of the deposited data

How the results depend on the processing

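Of the 9 complement genes, 8 were called in the main fit and under every alternative except the one that required at least 10 counts in every library, where Serping1 was not tested and the other 7 kept their calls. The log2 change ranged over the alternatives from -2.39 to -2.01 for C1qa, -1.49 to -1.10 for C1qb, -2.59 to -2.23 for C1qc, 1.32 to 1.60 for C2, 1.94 to 2.55 for C3, 5.00 to 5.72 for Cfb and 1.04 to 1.49 for Cfp. C4b ranged from -0.79 to 0.33 and was not called in any. Over all genes 8877 were called, 9044 with the replicate block, 9747 with DESeq2 and 7019 at an adjusted p of 0.01. Upper quartile normalization moved the median of all genes by -0.16. The replicate block changed no call of the 9 genes, but Fcna was called lower with it (-0.41), under upper quartile normalization (-0.52) and without LPS replicate 4 (-0.56), and C8g without LPS replicate 2 (-1.35). Of the pathway list 3 to 5 genes were called higher and 8 to 10 lower over the alternatives, against 4 and 9. Calr lost its call under upper quartile normalization (0.51, adjusted p = 0.0642), at an adjusted p of 0.01 and without vehicle replicate 1, 2 or 4 or LPS replicate 1 or 3. Itgax lost its call at an adjusted p of 0.01 and without vehicle replicate 1 or 3 or LPS replicate 2, 3 or 4. Vsig4 was not tested with at least 10 counts in every library, and Cd55 was called higher with the replicate block and without vehicle replicate 1. These genes were named after their values were seen. With the replicate block, the ratio differences were -0.90 (C1qa to C1qb), -1.14 (C1qc to C1qb), -4.28 (C2 to Cfb) and -2.47 (C4b to C3), each with an exact adjusted p = 0.125, the smallest that 4 pairs allow. With 1 library at a time left out, they ranged from -0.996 to -0.82, from -1.21 to -1.05, from -4.69 to -3.80 and from -2.99 to -2.14, with an exact adjusted p = 0.0571, the smallest that 4 against 3 allow. Low counts and the spread between vehicle libraries limit C4b, and depth limits the vehicle level of Serping1.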
